A study of Rattus norvegicus with 6 samples.

Results

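The miR-181 family is a group of small regulatory RNAs. It was followed here with and without interleukin-8 (IL-8) in cells labelled as rat skeletal muscle, under a differentiation protocol. Its members were taken by name, as all rat microRNAs (miRNAs) on the array whose name starts with miR-181. That gave 10 miRNAs of the 719 on the array, and 5 of them were bright enough to be compared, among 167 in all. The family was chosen with the comparison of IL-8 with control in view, and was selected on the log2 changes and adjusted p-values of rno-miR-181a-5p and of rno-miR-181a-1-3p, which had passed it. The other measured members are rno-miR-181b-5p, rno-miR-181c-5p and rno-miR-181d-5p, written below without the prefix for rat. All changes of its members with IL-8 are therefore given as a description and not as a test.

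The IL-8 group was 3 samples of rat primary skeletal muscle cells (RSkMC) exposed to 1 ng/ml recombinant IL-8 made in E. coli, and the control group was 3 untreated samples of the same cells. IL-8, also called CXCL8, is a chemokine that attracts neutrophils, and rats lack a direct counterpart of its gene. Both groups came from limb muscle of newborn animals, were bought at their second passage, were switched to 2% horse serum near confluence and were collected on day 11 of differentiation. The growth protocol names IL-8 for all 6 samples, whereas 3 of them are untreated by title, agent label and design text. Groups were taken from the titles. Separate cultures behind the 3 samples of a group are not stated in the labels, so the errors cover the spread between samples as collected, possibly a technical one.

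A miRNA precursor is a hairpin whose arms can each give a mature miRNA, named 5p and 3p, and the seed near the 5′ end of the mature form largely decides which messenger RNAs it represses. In cultured mouse myoblasts miR-181 is known to increase during differentiation and to repress Hoxa11, a homeobox protein that restrains the muscle programme. In mouse and human blood cells the same family is known for tuning the strength of T cell receptor signalling and for its part in lymphoid development.

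The mature sequences of the 5 measured members are printed because the seed divides them by arm. Capitals mark the seed, bases 2 to 8.
miR-181a-5p: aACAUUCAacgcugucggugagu
miR-181b-5p: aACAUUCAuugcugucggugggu
miR-181c-5p: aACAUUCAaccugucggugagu
miR-181d-5p: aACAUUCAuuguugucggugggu
miR-181a-1-3p: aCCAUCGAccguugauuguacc
The sequences are those of RefSeq for the rat assembly GRCr8, which held 9 of the 10 names and no entry matched to miR-181b-2-3p. The 5p members carry 1 seed in common, ACAUUCA, which no other rat mature miRNA of the RefSeq set had. Between miR-181b-5p and miR-181d-5p 22 of 23 bases were the same, and between miR-181a-5p and miR-181b-5p 20 of 23. The 3p member has a different seed, CCAUCGA, which it shares with miR-181c-3p, an arm not detected here.

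The family comes from 6 genes in adjacent pairs. Mir181a-1, at chr13:52037067-52037166 in GRCr8, lies 61 bases from Mir181b1, and both fall within the span of the long noncoding RNA gene LOC108352541. The miRNA gene Mir3570 also overlaps Mir181a-1. Mir181a2, at chr3:43025563-43025679, lies 986 bases from Mir181b2, and both fall within the span of Nr6a1, which encodes an orphan nuclear receptor, and of the long noncoding RNA gene LOC120101539. Mir181c, at chr19:40888291-40888396, lies 77 bases from Mir181d, and no other annotated gene overlaps them. Mature miR-181a-5p is encoded on both chromosome 13 and chromosome 3, so its signal cannot be assigned to either gene, whereas miR-181a-1-3p is encoded on chromosome 13 alone. The position of the miRNA genes within exons or introns of these genes was not analysed here.

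The 4 members of the shared seed are told apart on the array by short DNA probes that pair with the 3′ end of the miRNA. The longer of the 2 probes of each is printed 5′ to 3′. Capitals mark letters that would not pair with miR-181a-5p when the probe is aligned without gaps from the 3′ end of the miRNA.
miR-181a-5p probe: actcaccgacagcgt
miR-181b-5p probe: acCcaccgacagcA
miR-181c-5p probe: actcaccgacagGTtGAaT
miR-181d-5p probe: acCcaccgacaAcAAtg
All 18 family probes with a RefSeq mature sequence were complementary to their own miRNA over the full probe. In the same alignment without gaps 0 were fully complementary to another family member. Both miR-181b-5p probes had 1 mismatch to miR-181d-5p, and both miR-181d-5p probes had 1 mismatch to miR-181b-5p. The shorter miR-181b-5p probe, of 13 letters, also had 1 mismatch to miR-181a-5p, and the longer had 2. The first 12 letters of the miR-181a-5p probe also pair with miR-181c-5p. The 22 bases of miR-181c-5p are 10 at the 5′ end and 12 at the 3′ end that miR-181a-5p also has. Every letter of the miR-181c-5p probes would therefore pair with miR-181a-5p if a gap is allowed. How far the probes bind each other's miRNA was not tested, so the 5p values are uncertain as separate measurements.

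The arrays were 1-colour Agilent arrays read as fluorescence, with 10 spots for each family probe. The 75th percentile of the signal, by which each array was divided, was 540 to 569 on IL-8 arrays and 440.1 to 497 on control arrays. Probes well above background numbered 301 to 326 on IL-8 arrays and 269 to 294 on control arrays. The IL-8 arrays shared 1 slide and the control arrays shared a different one. A slide effect and an IL-8 effect therefore cannot be told apart in any value given here. Levels are log2 of the scaled signal, with 0 at the array's 75th percentile, and differ in brightness between probes, so they do not rank the members by amount. The number of arrays limits the precision.

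Among the 5p members, miR-181a-5p had the widest gap between the groups. Its 15-letter probe read 1145, 1151 and 1106 on IL-8 arrays, against 779.7, 819 and 881 on control arrays. After scaling, its log2 levels were 0.55, 0.61 and 0.55 with IL-8, against 0.29, 0.28 and 0.37 in control. Every IL-8 sample was above every control sample, both before and after scaling. The means were 0.57 ± 0.04 with IL-8 and 0.31 ± 0.05 in control (SD, n = 3 each), a log2 change of 0.26 ± 0.05 (SE) or 1.19-fold.

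miR-181a-1-3p, the 3p arm of the chromosome 13 precursor that also yields miR-181a-5p, had the highest change in the family. Its 19-letter probe read 78.8, 88.2 and 75.6 on IL-8 arrays, against 47.5, 52.3 and 57.0 on control arrays. Its log2 levels were -3.12, -2.95 and -3.15 with IL-8, against -3.48, -3.45 and -3.43 in control. The groups were apart again, with replicate 2 the highest of the IL-8 samples. The means were -3.07 ± 0.11 with IL-8 and -3.45 ± 0.03 in control (SD, n = 3 each), a log2 change of 0.38 ± 0.07 (SE) or 1.30-fold.

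These 2 miRNAs are the ones whose values led to the choice of the family, at limma adjusted p = 0.0218 for the 3p arm and 0.0315 for the 5p arm over 167 miRNAs. The member nearest beyond the threshold of 0.05 was miR-181b-5p, at a limma adjusted p of 0.109. Of all tested miRNAs 10 passed, 5 higher and 5 lower with IL-8, which is 5.99% in either direction and 2.99% higher. Both calls depended on single arrays and on the scaling. Neither passed without IL-8 replicate 1, without IL-8 replicate 2 or without control replicate 2, 1 passed without IL-8 replicate 3 or without control replicate 1, and both passed without control replicate 3. Neither passed when the 75th percentile was taken over all probes or with spike-in median scaling, while all 5 members passed without scaling. Of the 1730 rat miRNA probes, 269 to 326 per array were well above background, so the percentile over all probes lay among signals near background. The SE of each member's change was 0.21 with that percentile and 0.17 with spike-in median scaling. What led to the loss of calls was not tested. The split of all calls was 50 up and 1 down without scaling, 47 up and 2 down with the geometric mean of the spike-ins, 1 up and 23 down with normexp background correction, and 5 up and 10 down with median scaling.

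miR-181b-5p, which is encoded beside miR-181a in both of its clusters, had a smaller difference. Its 14-letter probe read 204, 209.6 and 217 on IL-8 arrays, against 153, 163 and 165 on control arrays. Its log2 levels were -1.70, -1.60 and -1.67 with IL-8, against -1.79, -1.84 and -1.88 in control. The groups did not overlap, but the nearest IL-8 and control samples lay close together. The log2 change was 0.18 ± 0.05 (SE), or 1.13-fold.

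miR-181c-5p, from the chromosome 19 pair, shares 10 bases at the 5′ end and 12 at the 3′ end with miR-181a-5p. Its 19-letter probe read 49.98, 51.7 and 51.7 on IL-8 arrays, against 32.5, 39.2 and 40.8 on control arrays. Its log2 levels were -3.92, -3.85 and -3.88 with IL-8, against -4.23, -3.99 and -3.98 in control. The groups did not overlap, and control replicate 1 stood below the other control samples. On that array the 18-letter probe read 16.9 and was not well above background, against 22.7 and 24.2 on the other control arrays. The log2 change of miR-181c-5p was 0.19 ± 0.08 (SE), with a limma adjusted p of 0.189, and without control replicate 1 it was 0.10.

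miR-181d-5p, the neighbour of miR-181c, was the only one of the 5 whose scaled levels overlapped. Its 17-letter probe read 53.2, 49.9 and 45.5 on IL-8 arrays, against 37.2, 41.5 and 34.3 on control arrays. Its log2 levels were -3.86, -3.97 and -4.04 with IL-8, against -3.96, -3.94 and -4.42 in control. Control replicate 3 was well below the other control samples. On that array the 16-letter probe read 15.7, against 21.5 and 23.1 on the other control arrays, and was not well above background. Its log2 level there was -4.98, against -4.35 and -4.36, and the floor set for dim values was -5.03. The 17-letter probe stood at -3.86 there, against -3.57 and -3.52. The log2 change of miR-181d-5p was 0.15 ± 0.13 (SE), with a limma adjusted p of 0.576, and without control replicate 3 it was -0.0076. The dimmer probe of miR-181d-5p and that of miR-181c-5p were each well above background on 2 of 3 control arrays and on all 3 IL-8 arrays, so these probes entered through the IL-8 group.

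**Figure D1:**
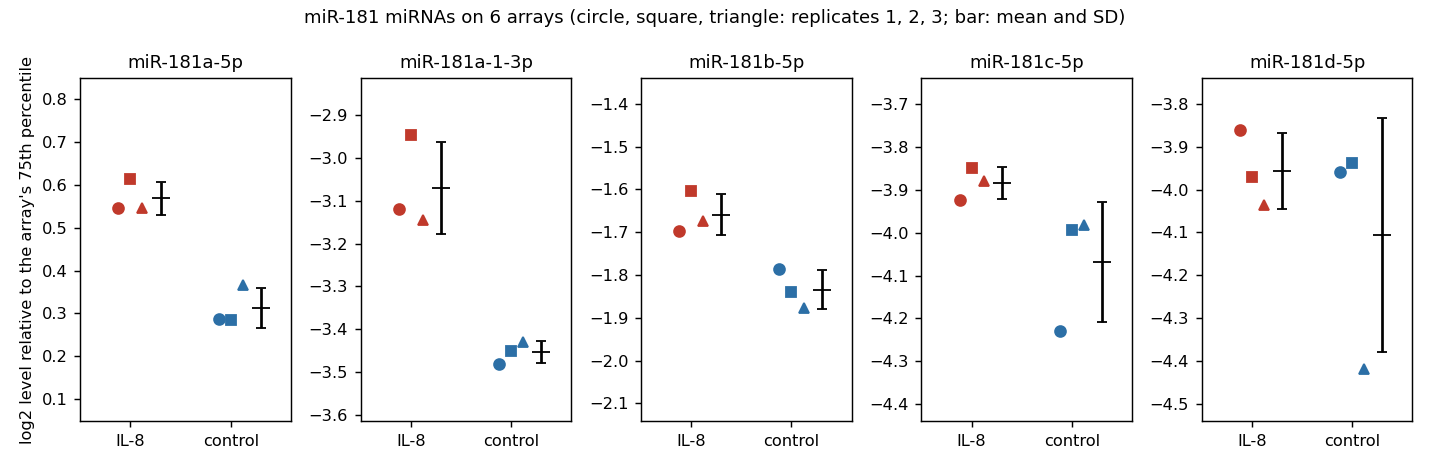
Log2 level relative to the array's 75th percentile for the 5 measured members, with IL-8 left of control; symbols are replicates 1, 2 and 3, and bars give mean and SD. The groups are apart for 4 members, including those that led to the choice of the family, and overlap for miR-181d-5p, where control replicate 3 lies low. They are apart with IL-8 higher for 27 of all 167 tested miRNAs (16.2%).

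The separate probes showed the same direction. Without any scaling, all 10 family probes in use were brighter on every IL-8 array than on every control array. This was also so for 178 of all 300 probes in use (59.3%), and the median ratio of IL-8 to control signal was 1.35 for the family probes and 1.19 for all. After scaling, the log2 change was 0.40 for the longer and 0.37 for the shorter probe of miR-181a-1-3p, and 0.23 for the longer and 0.29 for the shorter probe of miR-181a-5p. The remaining 6 probes ran from 0.14 to 0.22. The 2 probes of a miRNA overlap in sequence and share their arrays, so they are not independent. The spread between spots was widest for the 16-letter probe of miR-181d-5p, whose coefficient of variation reached 35.8%. No family spot was saturated.

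**Figure D2:**
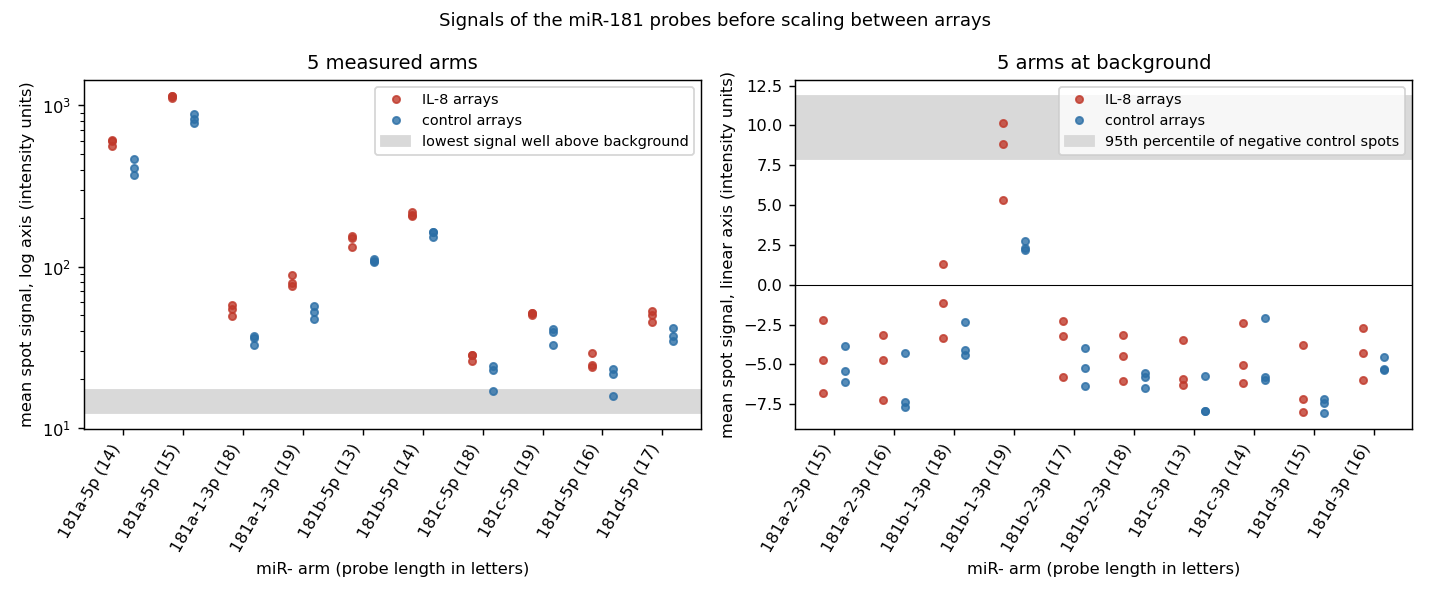
Unscaled signal of each family probe, 1 point per array and IL-8 left of control, for the 5 measured members (log axis, grey band at the range over arrays of the dimmest signal called above background) and the 5 at background (linear axis, grey band at the range of the 95th percentile of negative control spots). The 10 probes in use are brighter on every IL-8 array than on every control array, as are 178 of all 300 probes in use (59.3%). The 10 include the probes of the members that led to the choice of the family. The dimmer probes of miR-181c-5p and miR-181d-5p entered through the IL-8 group. The other family probes run from -8.06 to 1.28 apart from the 19-letter probe of miR-181b-1-3p.

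The other 5 members, miR-181a-2-3p, miR-181b-1-3p, miR-181b-2-3p, miR-181c-3p and miR-181d-3p, are opposite arms of the measured 5p miRNAs, and none was well above background on any array. Their 10 probes gave 60 values between -8.06 and 10.13, and 1 of them exceeded the 95th percentile of the 434 negative control spots of its array. That value belonged to the 19-letter probe of miR-181b-1-3p, which read 10.13, 8.83 and 5.33 on IL-8 arrays, against 2.18, 2.33 and 2.77 on control arrays. All 3 IL-8 readings were above the control readings. The median of the negative control spots was itself 4.58, 4.14 and 6.03 on IL-8 arrays, against 3.65, 3.12 and 4.83 on control arrays, and no fold is given for a probe below background. Thus miR-181a-1-3p was the only 3p arm of the family detected at this signal, although miR-181c-3p shares its seed and 20 of its 22 bases.

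Read against all miRNAs, the 5 measured members lay in the upper part of the distribution of changes. Their ranks from the highest change were 3 for miR-181a-1-3p, 9 for miR-181a-5p, 20 for miR-181c-5p, 22 for miR-181b-5p and 32 for miR-181d-5p, of 167. Their median log2 change was 0.19, beside 0.016 for all tested miRNAs, which divided into 94 higher and 73 lower in IL-8 samples. The groups were apart, with IL-8 higher, for 4 of 5 members and for 27 of all 167 (16.2%), while 50 of 167 were apart in either direction (29.9%). The family's median includes the 2 members that led to its choice, and the 3 others had changes of 0.15 to 0.19. Both medians moved with the scaling. Without scaling the median was 0.42 for the family and 0.24 for all tested miRNAs, and with the geometric mean of the spike-ins, a setting chosen after seeing the data, 0.38 for the family and 0.20 for all. With the 75th percentile over all probes it was 0.088 for the family and -0.079 for all, and with normexp 0.075 for the family and -0.070 for all.

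**Figure D3:**
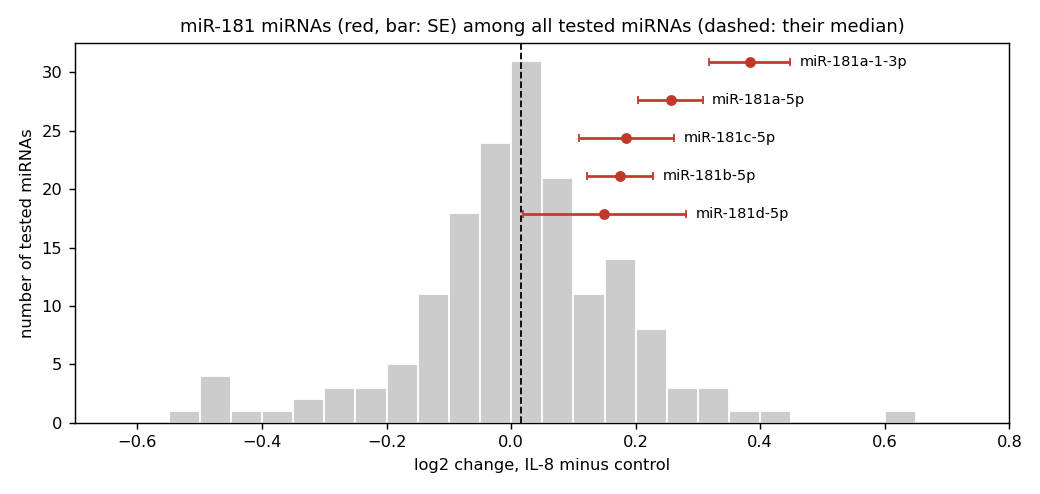
Log2 change, IL-8 minus control, of the 167 tested miRNAs as a histogram, with the 5 miR-181 members as points with SE bars at arbitrary heights and the median of all as a dashed line. The members lie between 0.15 and 0.38, above the median of all miRNAs at 0.016.

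Differences between members on the same array are free of any factor that scales a whole array, though not of an additive background. The level of miR-181a-1-3p minus that of miR-181a-5p was -3.67, -3.56 and -3.69 on IL-8 arrays, against -3.77, -3.73 and -3.80 on control arrays. The groups were apart, with a difference of 0.13 between them, but with normexp background correction it turned to -0.16. That correction also added an offset of 50 to every signal, beside readings of 47.5 to 88.2 for the 19-letter probe of miR-181a-1-3p. Such an offset narrows the log2 changes of dim probes more than those of bright ones. Its part in the turn to -0.16 was not tested. For miR-181b-5p minus miR-181a-5p the means were -2.23 ± 0.01 on IL-8 arrays and -2.15 ± 0.09 on control arrays (SD, n = 3 each). For miR-181c-5p minus miR-181a-5p they were -4.45 ± 0.02 with IL-8 and -4.38 ± 0.12 in control, and for miR-181d-5p minus miR-181a-5p -4.52 ± 0.10 with IL-8 and -4.42 ± 0.32 in control. The groups overlapped for these 3 seed-sharing members. The share of other miRNA pairs whose groups are apart is not given here. Among single miRNAs the groups were apart in either direction for 50 of 167 (29.9%). Both miR-181a-1-3p and miR-181a-5p led to the choice of the family, so their difference is a description.

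**Figure D4:**
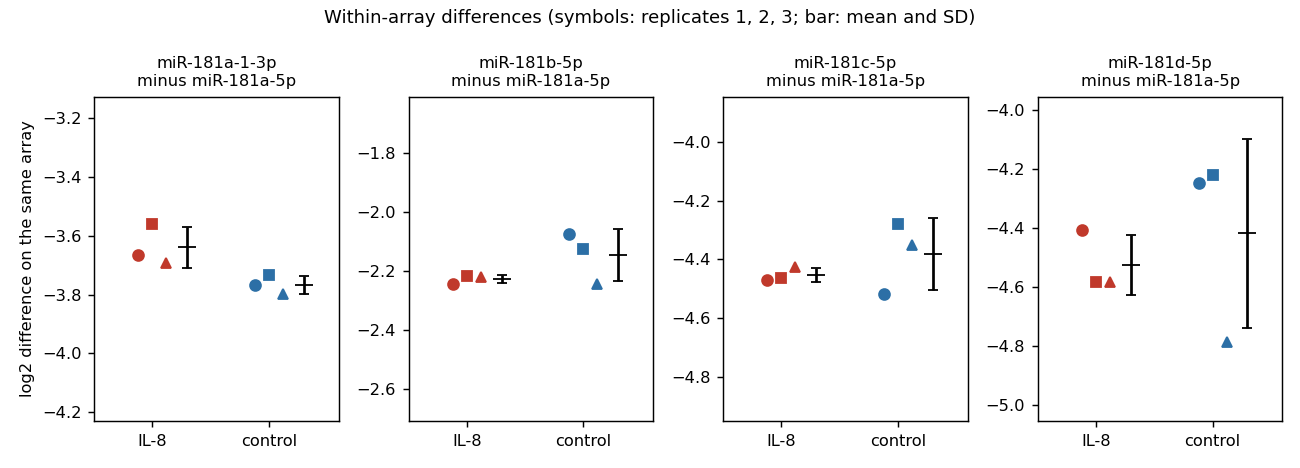
Log2 level of 4 members minus that of miR-181a-5p on the same array, with IL-8 left of control; symbols are replicates, and bars give mean and SD. The groups are apart only for miR-181a-1-3p, at -3.64 with IL-8 and -3.77 in control. Both miRNAs of that difference led to the choice of the family. Among single miRNAs the groups are apart in either direction for 50 of 167 (29.9%).

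The miRNAs outside the family whose pattern was most like that of miR-181a-5p were found by the root mean square (RMS) difference of levels, each centred on its own mean, over the 6 arrays. They were miR-411-5p at an RMS of 0.032, miR-30a-5p at 0.045, miR-34a-3p at 0.051, miR-30c-5p at 0.057 and miR-411-3p at 0.059. The median over all 166 others was 0.14. The log2 changes of these 5 with IL-8 were 0.22, 0.17, 0.18, 0.19 and 0.33, in that order. Within the family, miR-181b-5p ranked 7 of 166, miR-181a-1-3p 13, miR-181c-5p 17 and miR-181d-5p 134. For miR-181a-1-3p the nearest outside the family were miR-411-3p at 0.074, miR-551b-5p at 0.090 and miR-411-5p at 0.10, and miR-181a-5p ranked 2 of 166 at 0.077. The likeness includes the difference between the groups, which also differ in slide.

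Lists of other miRNAs tied to muscle differentiation or inflammation were set beside the family, and are to be read against the 5.99% called among all tested miRNAs. Some miRNAs stand on more than 1 list, so the lists are not separate sets. Of 20 miRNAs on the array from a list described to promote myoblast differentiation, 10 were bright enough to be tested, 4 were higher, 6 were lower and 0 passed limma (0 at unadjusted p under 0.05), with a median log2 change of -0.043 beside 0.016 for all. Among them miR-26a-5p, which targets Ezh2 in mouse myoblasts, stood at 0.13 ± 0.06 (SE) while miR-29b-3p, which represses collagen messenger RNAs, stood at 0.22 ± 0.13 (SE) and miR-27b-3p, which targets Pax3 in mouse muscle progenitors, at -0.08 ± 0.06 (SE). From the list described to restrain differentiation or fall in it, 8 were tested and 0 passed limma (2 at unadjusted p under 0.05), 1 higher and 7 lower, with a median of -0.067. In it miR-222-3p, a repressor of the cyclin-dependent kinase inhibitor p27, stood at -0.16 ± 0.06 (SE), miR-487b-3p at 0.15 ± 0.05 (SE) and miR-31a-5p, which represses Myf5 in mouse satellite cells, at -0.12 ± 0.06 (SE). Of 4 tested inflammation-responsive miRNAs, 1 passed, beside 10 of all 167 (5.99%). It was miR-132-3p, a CREB-responsive miRNA, at -3.99 ± 0.04 with IL-8 and -3.63 ± 0.10 in control (SD, n = 3 each), with a log2 change of -0.36 ± 0.07 (SE, limma adjusted p = 0.0218). At unadjusted p under 0.05, 41 of 167 miRNAs passed limma.

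Against the label of skeletal muscle cells, 0 of 6 defining miRNAs of that tissue, among them miR-1-3p, miR-133a-3p and miR-206-3p, were well above background on any array, and their highest signal was 9.23. Of 6 blood cell markers, a lineage that also carries miR-181, 0 were well above background, with miR-223-3p the brightest at 9.86 and a summed signal of -3.06 to 22.1 on IL-8 arrays and -12.7 to 5.82 on control arrays. None of 2 endothelial and 5 epithelial markers was detected. Of 3 neural markers 1 was, miR-128-3p, at a log2 change of -0.15 that did not pass. miR-214-3p, a fibroblast and smooth muscle marker here, is also on the list described to promote myoblast differentiation. All 5 fibroblast and smooth muscle markers, such as miR-143-3p and miR-145-5p, were well above background on all 6 arrays. Their summed signal was 35413 to 35549 on IL-8 arrays and 27690 to 35263 on control arrays before scaling, while after scaling 4 of the 5 were lower with IL-8 and 0 passed limma (0 at unadjusted p under 0.05, median log2 change -0.024). Their part in the miR-181 values was not tested. In bulk RNA, fewer cells of a type and less RNA per cell cannot be told apart.

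**Figure D5:**
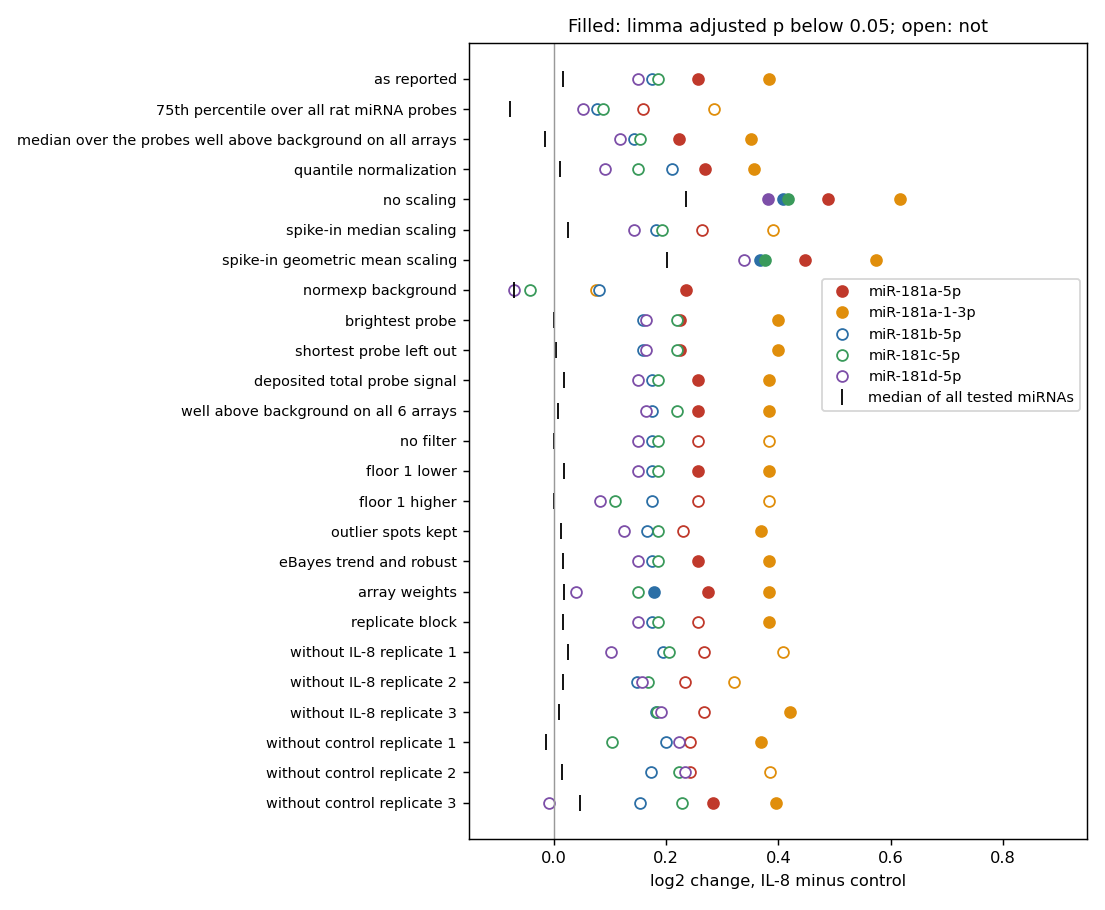
Log2 change, IL-8 minus control, of the 5 members under each processing setting, filled where the limma adjusted p was below 0.05, with a tick at the median of all tested miRNAs. Changes of miR-181a-5p, miR-181a-1-3p and miR-181b-5p are above 0 throughout, while miR-181c-5p falls below 0 with normexp and miR-181d-5p with normexp and without control replicate 3.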

How the data were processed

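Total RNA of 6 samples was labelled with Cy3 and hybridised to 1 array each, per the labels' protocols. The authors' deposited values are spot intensities on a linear scale, extracted with Agilent Feature Extraction 10.10.1.1 per the submitters' processing notes, background-subtracted and not normalized between arrays per the file headers. All error of that step enters every value here. Deposited beside them, a table of intensities matched the total probe signal of the array files (relative tolerance 0.0001) and served as an alternative.

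Spots of a probe were averaged without outlier spots. Scaling used the 75th percentile of each array, taken over the 264 probes that all 6 arrays showed well above background (in more than 50% of their spots). A floor at -5.03 on the resulting log2 scale held dim values. A miRNA was the mean of those probes that every array of at least 1 group showed well above background, and 552 of 719 had none and were left out. This scaling cancels a change common to all miRNAs. Groups were compared by limma 3.58.1 (lmFit, eBayes) in R 4.3.3 over 167 miRNAs, with Benjamini-Hochberg adjustment at 0.05. This step was tested on simulated data with changes larger than any reported here, independent noise and no slide effect. Its recovery of changes as small as those of the family was not tested. Genes and sequences came from RefSeq GRCr8.

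The members, lists, tests and alternatives were chosen with earlier results of these data known. Named miRNAs are all miR-181 members, the 5 nearest to miR-181a-5p and 3 nearest to miR-181a-1-3p outside the family, and from each pathway list the called members or up to 3 of smallest p. Alternatives were other scalings, background, probe summaries, filters, floors, limma settings and leaving out each array.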

Additional observations from a re-analysis of the deposited data

How the results depend on the processing

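Across 24 alternatives, miR-181a-1-3p was called in 16, miR-181a-5p in 13, miR-181b-5p in 3, miR-181c-5p in 2 and miR-181d-5p in 1. The cause of the shifts below was not tested. With the 75th percentile over all probes, most of them not well above background, limma called 0 miRNAs (9 at unadjusted p under 0.05). Of these 0 were miR-181, and the family median was 0.088. With spike-in median scaling it called 0 (11 unadjusted) and 0 miR-181, and with the floor 1 log2 unit higher 0 (30 unadjusted) and 0 miR-181. With no filter it tested 719 miRNAs in place of 167, and called 1 (34 unadjusted) and 0 miR-181. Without scaling it called 51 with 5 miR-181 and a family median of 0.42, and with the spike-in geometric mean, chosen after seeing the data, 49 with 4 and a median of 0.38. With normexp and its offset of 50 it called 24 with 1 miR-181, and the median was 0.075. The arm difference then turned to -0.16, miR-181c-5p to -0.043 and miR-181d-5p to -0.071. Quantile normalization called 17 and array weights 28 miRNAs. With outlier spots kept 1 miR-181 was called. Leaving out 1 array gave 1 to 27 calls, 0 to 2 of them miR-181, a family median of 0.17 to 0.23 and an arm difference of 0.087 to 0.15; without control replicate 3 there were 27 calls, without IL-8 replicate 2 there was 1, and miR-181d-5p stood at -0.0076 without control replicate 3. Replicate numbers were not taken as pairs in the main comparison. Deviations from the group means correlated at 0.29, 0.33 and 0.086 between same-numbered samples of the groups. Between differently numbered samples they correlated at -0.58 to 0.33, so these values do not settle whether the numbers are pairs. With a replicate block 8 miRNAs were called, and 1 miR-181 (miR-181a-1-3p, limma adjusted p = 0.0454, against 0.0621 for miR-181a-5p). Dim members such as miR-181c-5p and miR-181d-5p lie near the lowest signal called above background, which limits their precision.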
